A study of Homo sapiens with 24 samples.

Results

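The 161 genes described here carry a name of the form ZNF followed by a number and at most 1 letter, lie on chromosome 19 and had at least 10 counts in at least 3 of 24 RNA-seq libraries. Of the 55773 gene names in the deposited table, 261 met the name and chromosome conditions and 100 of these did not reach the counts, 16 of them with no count in any library. The libraries came from U937 cells, a human myelomonocytic leukaemia line, in 8 groups of 3 libraries. UNC0638, an inhibitor of the H3K9 methyltransferases G9a and GLP, was given at 2 µM or 4 µM with harvest after 3 days, and DMSO-treated cells were its control. Lentiviral hairpins against G9a (numbers 2 and 3) or against SUV39H1 (numbers 2 and 4) were each selected in puromycin for 3 days, and a scrambled hairpin was their control. The labels give neither a time for the DMSO cells nor a selection for the scrambled cells, and they name no lentivirus for the UNC0638 and DMSO cells. The study addressed the complex of SUV39H1, G9a and GLP. Nothing in the labels says that the 3 libraries of a group came from separate cultures, so the p-values below measure only the spread among these libraries, which may be technical.

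Most human genes of this name encode C2H2 zinc finger proteins, in which a row of fingers reads DNA and, in many, an N-terminal KRAB domain binds the corepressor TRIM28. TRIM28 in turn brings in the H3K9 methyltransferase SETDB1 and HP1 proteins, and many of these zinc finger proteins are known to bind transposable elements. The genes stand in tandem arrays on chromosome 19 that grew by duplication, and the arrays themselves are known to be covered with H3K9me3. G9a (gene EHMT2) and GLP (EHMT1) chiefly place mono- and dimethylation on H3K9, and SUV39H1 places trimethylation.

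Across the whole series, the libraries held 31545854 to 53803704 counts. EHMT2 averaged 73.7 ± 2.8 CPM (library-size-scaled counts, normalised by TMM) with G9a hairpin 2 and 73.2 ± 3.7 CPM with hairpin 3, against 144 ± 8.5 CPM with the scrambled hairpin (SD, n = 3 each). SUV39H1 averaged 18.6 ± 0.4 CPM with its hairpin 2 and 21.1 ± 1.8 CPM with its hairpin 4, against 58.2 ± 1.7 CPM with the scrambled hairpin (SD, n = 3 each). Of 10 myelomonocytic markers 8 stood at 10 CPM or more in every library, while MPO reached at most 1.88 CPM and CSF1R ran from 4.14 to 14.2 CPM. The summed level of the 10 was 5083 to 5129 CPM with SUV39H1 hairpin 2, 3290.05 to 3340 CPM with SUV39H1 hairpin 4, 2433 to 2466 CPM with G9a hairpin 2 and 2517 to 2595 CPM with G9a hairpin 3, against 1986 to 2072 CPM with the scrambled hairpin. In the inhibitor series it was 2148 to 2460.3 CPM in DMSO, 2062 to 2180.25 CPM at 2 µM and 2099 to 2286 CPM at 4 µM. The single T cell, erythroid and epithelial markers reached at most 0.0505 CPM. The sum of 3 fibroblast markers was 0.671 to 0.819 CPM with SUV39H1 hairpin 2 and 0.279 to 0.384 CPM with hairpin 4, against 0 to 0.118 CPM with the scrambled hairpin. Of the B cell markers MS4A1 was at 0 in 21 of 24 libraries, and CD79A ran from 3.37 to 25.9 CPM over all libraries. The part of these marker levels in the results below was not tested.

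Levels of the zinc finger genes were low and uneven. The mean over all libraries ranged from 0.117 to 231 CPM with a median of 7.34 CPM, 135 members averaged at least 1 CPM and 69 at least 10 CPM, and 147 had at least 10 counts in all 24 libraries. On the scale of CPM per kb of summed gene length, ZNF146, a protein made of fingers without a KRAB domain, stood far above the others at 55.8 CPM per kb. The next levels were 15.4 CPM per kb for ZNF428, 15.3 for ZNF266, 14.1 for ZNF480 and 12.6 for ZNF317. ZNF772, ZNF671 and ZNF77 were among the 5 lowest, at 0.0243, 0.0436 and 0.0482 CPM per kb. ZNF77 was the only member with 10 counts in exactly 3 libraries and the only one that did not pass the filter on low counts, so 160 members were tested. ZNF600, with 10 counts in 2 libraries, stood just outside the rule.

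Of the 161 members, 159 were matched by name to GENCODE 29 and 154 had a coding transcript there. A search of the coding sequences for C2H2 finger spacing found 1 to 29 fingers per protein, with a median of 11. The KRAB letters searched (leucine, tyrosine, any 2 residues, valine, then methionine or threonine, in the first 250 residues) were present in 118 of the 154. A protein without those exact letters may still have a KRAB domain. Among tested members the match was absent in ZNF146, ZNF428, ZNF134, in the histone pre-mRNA processing factor ZNF473 and in ZNF536, a long protein known as a regulator of neuronal differentiation.

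RefSeq promoters (GRCh38.p14, 250 bases before to 50 after the start) were found for 135 members. Only the first listed start of each member was used, while the set of all promoters holds every listed start. Promoters of some neighbouring members, such as ZNF461 and ZNF567, share bases, which are then counted for both. The ETS motif CCGGAAG stood on either strand in 62 of these promoters, or 45.9%, against 10.3% of the 35116 promoters in the table. The SP/KLF motif GGGCGG was in 65.9% of member promoters against 45.0% of all, the CRE motif TGACGTCA in 5.19% against 1.85%, and the YY1 motif AAGATGG in 9.63% against 5.84%. Matches of different motifs were counted separately even where they overlap, and GC content had a median of 61% in member promoters and 58.7% in all. The 6 promoters below belong to members whose levels carry the comparisons that follow, 3 that were lower with the inhibitor, 1 that was higher with G9a hairpins, and 1 higher and 1 lower with SUV39H1 hairpins. Capitals mark the searched motifs on either strand.
ZNF177 promoter, chr19:9362763-9363062, plus strand: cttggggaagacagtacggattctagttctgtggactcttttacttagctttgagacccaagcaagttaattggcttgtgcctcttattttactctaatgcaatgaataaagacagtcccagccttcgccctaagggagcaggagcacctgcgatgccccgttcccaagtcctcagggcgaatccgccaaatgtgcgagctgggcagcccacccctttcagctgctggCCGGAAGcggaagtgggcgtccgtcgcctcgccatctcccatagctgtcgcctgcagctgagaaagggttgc
ZNF461 promoter, chr19:36666788-36667087, minus strand: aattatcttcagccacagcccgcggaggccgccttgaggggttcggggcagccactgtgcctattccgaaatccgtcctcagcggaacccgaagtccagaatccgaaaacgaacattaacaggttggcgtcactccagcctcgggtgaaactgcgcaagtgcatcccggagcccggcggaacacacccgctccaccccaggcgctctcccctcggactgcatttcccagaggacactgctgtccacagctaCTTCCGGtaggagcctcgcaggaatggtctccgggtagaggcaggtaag
ZNF134 promoter, chr19:57613992-57614291, plus strand: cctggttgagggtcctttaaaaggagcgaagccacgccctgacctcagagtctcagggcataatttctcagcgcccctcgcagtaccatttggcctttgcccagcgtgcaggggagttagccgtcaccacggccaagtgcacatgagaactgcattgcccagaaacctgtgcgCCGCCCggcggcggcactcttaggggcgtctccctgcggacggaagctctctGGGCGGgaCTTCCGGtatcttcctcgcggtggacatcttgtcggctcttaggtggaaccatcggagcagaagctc
ZNF93 promoter, chr19:19900696-19900995, plus strand: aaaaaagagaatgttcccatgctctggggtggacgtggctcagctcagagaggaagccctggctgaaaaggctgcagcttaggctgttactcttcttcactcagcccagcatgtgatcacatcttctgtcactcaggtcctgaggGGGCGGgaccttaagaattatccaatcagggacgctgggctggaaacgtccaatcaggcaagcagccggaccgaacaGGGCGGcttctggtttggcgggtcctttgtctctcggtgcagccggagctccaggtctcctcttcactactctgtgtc
ZNF254 promoter, chr19:24086937-24087236, plus strand: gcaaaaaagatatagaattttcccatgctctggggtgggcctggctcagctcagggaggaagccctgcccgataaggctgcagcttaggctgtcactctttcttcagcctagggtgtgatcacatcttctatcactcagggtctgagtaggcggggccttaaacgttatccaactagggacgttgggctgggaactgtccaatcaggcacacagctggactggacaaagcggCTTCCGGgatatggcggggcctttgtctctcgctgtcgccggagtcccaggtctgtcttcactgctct
ZNF584 promoter, chr19:58408399-58408698, plus strand: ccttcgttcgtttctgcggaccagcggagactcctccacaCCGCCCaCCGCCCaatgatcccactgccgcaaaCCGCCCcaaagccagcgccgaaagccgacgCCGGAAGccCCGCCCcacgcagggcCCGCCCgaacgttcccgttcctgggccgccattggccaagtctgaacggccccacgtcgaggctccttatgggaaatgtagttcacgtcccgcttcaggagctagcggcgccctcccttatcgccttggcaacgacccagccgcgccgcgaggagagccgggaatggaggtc
Counted from the start base as 0, the first ETS letter lay at -22 in ZNF177, at -17 in ZNF134, at -18 in ZNF254, at 1 in ZNF461 and at -147 in ZNF584, while ZNF93 held 2 SP/KLF matches and no ETS match. A match is a description of the letters and not of binding. The ETS share was 52.2% among members lower at 4 µM UNC0638 and 39.7% among those not called there. The same shares were 62.3% and 69.8% for SP/KLF, 4.35% and 6.35% for CRE, and 13.0% and 6.35% for YY1. With G9a hairpins the ETS share was 53.2% among higher members and 45.1% among those not called. None of these differences was tested.

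Nearly all members that changed with the inhibitor fell. At 4 µM UNC0638 against DMSO, 83 of 160 members were lower and 2 were higher (p under 0.05 in the quasi-likelihood test of edgeR after adjustment by Benjamini and Hochberg's method over all genes tested), where 9.73% of all 20147 genes tested were lower and 10.2% were higher. The median log2 fold change was -0.30, against -0.01 over all genes tested, and 143 of the 160 estimates were negative. At 2 µM against DMSO, 68 members were lower and 0 were higher, where 3.34% of all genes were lower and 3.83% higher, with a median of -0.24. For the count of 0, 4 members were higher at an unadjusted p under 0.05 by edgeR, 2 by DESeq2 and 0 by DESeq2 after adjustment, and the count was 3 without DMSO replicate 1 and 1 without 2 µM replicate 2. ZNF genes on other chromosomes were lower in 42 of 208 at 4 µM, or 20.2%, with a median of -0.06, and other genes of chromosome 19 in 211 of 1275, or 16.5%, with a median of -0.09. In bulk RNA, fewer cells of a kind and less RNA per cell cannot be told apart.

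The summed level of all 161 members in DMSO was 2333, 2212 and 2189 CPM, at 2 µM 1995, 1944 and 1981 CPM, and at 4 µM 1969, 1954 and 1925 CPM. Every UNC0638 library lay below every DMSO library, and the group means were 2245 ± 77, 1974 ± 26 and 1949 ± 22 CPM (SD, n = 3 each). With hairpins the sum averaged 2338 ± 33 CPM for G9a hairpin 2, 2304 ± 24 CPM for G9a hairpin 3, 1982 ± 23 CPM for SUV39H1 hairpin 2 and 2334 ± 11 CPM for SUV39H1 hairpin 4, against 2283 ± 64 CPM for the scrambled hairpin (SD, n = 3 each). Only SUV39H1 hairpin 2 among the 4 hairpins left the range of the scrambled libraries on the low side, and all 3 of its libraries lay below all 3 scrambled libraries.

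**Figure D1:**
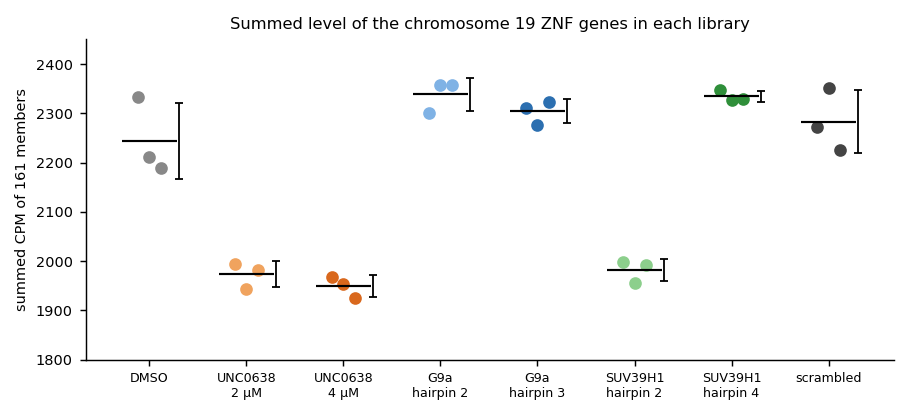
Summed CPM of the 161 members (vertical axis, which does not start at 0) in each of 24 libraries, by group. Points are libraries, the line is the mean and the bar beside it 1 SD. The UNC0638 libraries (1925 to 1995 CPM) and those of SUV39H1 hairpin 2 (1955 to 1998 CPM) lie below all others.

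**Figure D2:**
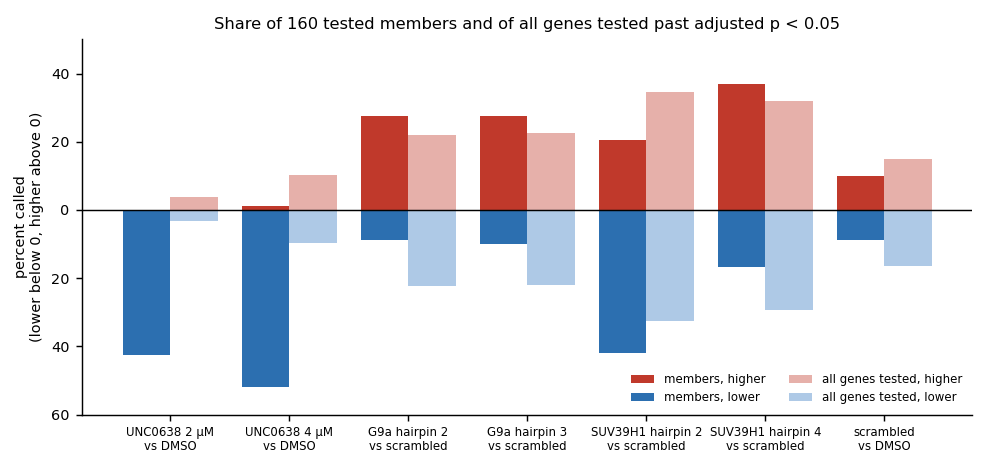
Percent of the 160 tested members (dark bars) and of all 20147 genes tested (light bars) that were higher (upward) or lower (downward) at an adjusted p under 0.05, for 7 comparisons. Members were lower in 42.5% and 51.9% at 2 µM and 4 µM UNC0638, where all genes were lower in 3.34% and 9.73%.

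The strongest changes named below for UNC0638, the G9a hairpins and the SUV39H1 hairpins were picked among members whose libraries did not overlap their controls. For these members the lack of overlap is part of the choice and no added support. Among members averaging at least 1 CPM, ZNF177 (chr19:9435021-9493293, plus strand, hg19), whose product carries 7 fingers and the KRAB letters, fell furthest at 4 µM. In DMSO ZNF177 stood at 1.85, 1.84 and 1.56 CPM, at 2 µM at 0.808, 0.937 and 0.804 CPM and at 4 µM at 0.653, 0.803 and 0.681 CPM. All 6 UNC0638 libraries lay below the DMSO libraries, and the log2 fold change at 4 µM was -1.29 ± 0.14 (SE) (edgeR adjusted p = 8.3e-08). ZNF559 starts just before ZNF177 on the same strand and shares with it the annotated read-through gene ZNF559-ZNF177, so reads of the pair may be split between names. The ZNF559 levels were 9.20, 8.94 and 8.42 CPM in DMSO, 4.82, 5.16 and 4.41 CPM at 2 µM and 4.95, 4.47 and 4.71 CPM at 4 µM UNC0638. ZNF559 also separated both doses from DMSO, with -0.91 ± 0.09 (SE) at 4 µM.

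ZNF845 (chr19:53837002-53858122, plus strand, hg19) encodes 26 fingers behind the KRAB letters. ZNF845 had 5.84, 5.26 and 4.31 CPM in DMSO, 2.98, 2.89 and 2.02 CPM at 2 µM and 2.61, 2.39 and 2.00 CPM at 4 µM. Both doses lay below every DMSO library and overlapped each other, and the change at 4 µM was -1.14 ± 0.13 (SE) (edgeR adjusted p = 1.9e-07). ZNF461 (chr19:37128094-37157755, minus strand, hg19) had its lowest levels at the lower dose. In DMSO ZNF461 stood at 1.38, 1.71 and 1.61 CPM, at 2 µM at 0.732, 0.573 and 0.619 CPM and at 4 µM at 0.878, 0.826 and 0.761 CPM. Its log2 fold change was -1.27 ± 0.16 (SE) at 2 µM and -0.92 ± 0.15 (SE) at 4 µM, both called, and the dose difference itself was not called. ZNF136, a KRAB protein known as a repressor in reporter assays, also fell. The ZNF136 levels were 14.0, 11.4 and 11.5 CPM in DMSO, 7.12, 6.56 and 7.20 CPM at 2 µM and 7.09, 6.93 and 6.25 CPM at 4 µM UNC0638. No UNC0638 library reached the lowest DMSO library, and the change at 4 µM was -0.87 ± 0.08 (SE).

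The other members that the naming rule placed among the strongest falls were ZNF137P, ZNF776 and ZNF850 at 4 µM and ZNF761 and ZNF253 at 2 µM. Their log2 fold changes at 4 µM were -0.85 ± 0.11 (SE) for the pseudogene ZNF137P, -0.82 ± 0.10 (SE) for ZNF776 and -0.81 ± 0.09 (SE) for ZNF850. At 2 µM ZNF761 changed by -0.99 ± 0.08 (SE) and ZNF253 by -0.86 ± 0.15 (SE). ZNF137P overlaps ZNF83 on the other strand, and the kit does not mark strand, so reads of the pair cannot be told apart where they overlap. The same holds for 61 of the 161 members, which overlap a tested gene on the other strand. Members that overlap any tested gene were lower at 4 µM in 51 of 93, and those that overlap none in 32 of 67. Near-identical finger repeats also make the split of reads between related members uncertain.

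Both rises at 4 µM were small. ZNF175, known to restrain HIV-1 transcription in macrophages, had 16.9, 20.2 and 18.1 CPM at 4 µM, against 15.5, 13.8 and 14.2 CPM in DMSO. The groups did not overlap, with a change of 0.34 ± 0.07 (SE) (edgeR adjusted p = 8.3e-04). ZNF536 had 33.0, 33.1 and 31.4 CPM at 4 µM, against 30.0, 26.7 and 24.7 CPM in DMSO, a change of 0.26 ± 0.07 (SE) (edgeR adjusted p = 0.00605). Without DMSO replicate 3, the lowest DMSO library, the ZNF536 change was 0.19 and its edgeR adjusted p was 0.0685.

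No member passed the test between the doses. At 4 µM against 2 µM, 0 members were higher and 0 lower by edgeR, where 1.39% of all genes were higher and 0.452% lower. At an unadjusted p under 0.05, edgeR gave 2 higher and 10 lower members and DESeq2 gave 1 and 9, and DESeq2 called 0 after adjustment. ZNF177 stood at 0.653, 0.803 and 0.681 CPM at 4 µM, against 0.808, 0.937 and 0.804 CPM at 2 µM, a difference of -0.25 ± 0.16 (SE) on the log2 scale. ZNF461 stood at 0.878, 0.826 and 0.761 CPM at 4 µM, against 0.732, 0.573 and 0.619 CPM at 2 µM, a difference of 0.35 ± 0.18 (SE). Neither difference passed the test, which does not show that the doses act alike.

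Depletion of G9a itself gave another picture. With the 2 G9a hairpins together against the scrambled hairpin, 54 members were higher and 18 lower, where 25% of all genes were higher and 24.9% lower, and the median log2 fold change was 0.11 against 0.01 over all genes. The 54 became 38 without scrambled replicate 3, where 4654 of all genes were higher in place of 5038. With DESeq2 the 54 became 41, where 4300 of all genes were higher. Hairpin 2 alone gave 44 higher and 14 lower members, where all genes gave 22.1% and 22.3%. Hairpin 3 alone gave 44 higher and 16 lower, where all genes gave 22.6% and 22.1%, and the 16 became 9 without hairpin 3 replicate 2 and 9 without scrambled replicate 2. The share of higher members, 33.8%, was close to the 33.7% of ZNF genes on other chromosomes, and the share of lower members was 11.2% against 19.7% there. Hairpin 3 against hairpin 2 gave 0 higher and 0 lower members by edgeR, with 4 and 2 at an unadjusted p under 0.05, 1 and 1 by DESeq2 unadjusted, 0 by DESeq2 adjusted, and 0.00496% of all genes in each direction.

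ZNF93 (chr19:20011722-20046384, plus strand, hg19), a KRAB protein known for binding L1 retrotransposons, rose most among members at 1 CPM or more. It had 36.4, 38.4 and 39.0 CPM with hairpin 2 and 35.7, 34.0 and 37.1 CPM with hairpin 3, against 21.3, 23.4 and 19.8 CPM with the scrambled hairpin. All 6 G9a hairpin libraries lay well above the scrambled ones, with a change of 0.77 ± 0.05 (SE) (edgeR adjusted p = 9.1e-12). ZNF93 had 24.2, 21.7 and 21.6 CPM in DMSO, 15.6, 14.8 and 15.5 CPM at 2 µM and 17.0, 14.8 and 15.6 CPM at 4 µM. With the inhibitor ZNF93 moved in the opposite direction, at -0.51 ± 0.07 (SE) for 4 µM.

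ZNF461 had 2.26, 2.13 and 2.15 CPM with G9a hairpin 2 and 2.31, 2.18 and 2.30 CPM with hairpin 3, against 1.39, 1.73 and 1.55 CPM with the scrambled hairpin. The groups did not overlap and the change was 0.49 ± 0.11 (SE) (edgeR adjusted p = 5.1e-04). ZNF224, a KRAB repressor known to act on the aldolase A gene, had 15.2, 14.7 and 15.6 CPM with hairpin 2 and 15.6, 15.1 and 14.4 CPM with hairpin 3, against 10.4, 10.8 and 11.2 CPM with the scrambled hairpin. It was higher in 6 of 6 hairpin libraries, with 0.48 ± 0.05 (SE). ZNF548, ZNF137P, ZNF554 and ZNF546 were also among the 8 strongest rises, with log2 fold changes of 0.51, 0.54, 0.47 and 0.44. The scrambled level of ZNF137P was itself lower than its DMSO level, as given below, and the part of that in its rise was not tested. ZNF846 rose by 0.65, but the scrambled libraries stood at 1.09, 1.02 and 1.03 CPM and the DMSO libraries at 1.47, 2.16 and 1.35 CPM, so the G9a hairpin libraries, 1.44, 1.57 and 1.69 CPM for hairpin 2 and 2.05, 1.26 and 1.83 CPM for hairpin 3, lay within or near the range of DMSO cells.

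Members that fell with G9a hairpins included several without the KRAB letters. ZNF536 had 19.8, 19.9 and 17.3 CPM with hairpin 2 and 18.3, 20.2 and 17.1 CPM with hairpin 3, against 28.7, 29.6 and 26.3 CPM with the scrambled hairpin, a change of -0.59 ± 0.06 (SE) (edgeR adjusted p = 5.4e-09). Hairpin and scrambled libraries did not overlap. ZNF146 had 226, 239 and 237 CPM with hairpin 2 and 227, 215 and 228 CPM with hairpin 3, against 265, 276 and 250.4 CPM with the scrambled hairpin, a smaller change of -0.21 ± 0.05 (SE). In DMSO ZNF146 stood at 266, 230.4 and 214 CPM, so its G9a hairpin libraries lay within the range of DMSO cells. ZNF584, ZNF566, ZNF576, ZNF787, ZNF558 and ZNF473 completed the 8 strongest falls, at -0.55, -0.36, -0.35, -0.19, -0.17 and -0.14. ZNF566 stood at 14.2, 10.5 and 12.5 CPM in DMSO, and its G9a hairpin libraries, 10.6 to 12.5 CPM, lay within that range. ZNF576 had 12.7 to 14.9 CPM with G9a hairpins and overlapped its DMSO levels of 14.4, 14.5 and 14.8 CPM. The ZNF536 and ZNF558 hairpin libraries lay below all DMSO libraries. The scrambled levels of ZNF584 and ZNF576 were above DMSO, as given below, and the part of that in their falls was not tested.

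The difference between the inhibitor response and the G9a hairpin response was tested in the same fit. The change at 4 µM against DMSO was below the change with G9a hairpins against scrambled in 89 of 160 members and above it in 4, where 22.3% of all genes were below and 22.5% above, with a median difference of -0.41. Of the 54 members higher with G9a hairpins, 34 were lower at 4 µM, which is 63.0% of them and 41.0% of the 83 lower members, beside 51.9% lower among all tested members. Of the 18 lower with G9a hairpins, 6 were lower at 4 µM, which is 33.3% of them and 7.23% of the 83. The largest differences at 1 CPM or more were -1.46 ± 0.17 (SE) for ZNF177, -1.41 ± 0.19 (SE) for ZNF461 and -1.39 ± 0.14 (SE) for ZNF137P in the negative direction. In the positive direction they were 0.85 ± 0.09 (SE) for ZNF536, 0.57 ± 0.07 (SE) for ZNF584 and 0.48 ± 0.07 (SE) for ZNF576. The 2 responses differ in control, vector and selection as well as in agent, and these cannot be told apart.

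**Figure D3:**
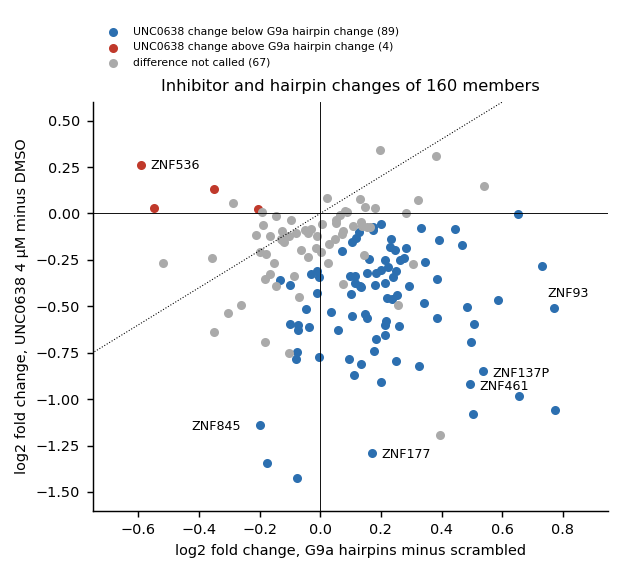
Log2 fold change at 4 µM UNC0638 against DMSO (vertical) and with G9a hairpins against scrambled (horizontal) for the tested members inside the axes. The 160 members ran from -1.04 to 1.07 with G9a hairpins, and those at the ends of this range lie outside the horizontal axis. Points are genes, the dotted line marks equal change, and colours mark the 89 members below it and the 4 above it by the test of the difference. These counts include any member outside the axes.

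The counts were also taken by the presence of the KRAB letters. At 4 µM, 66 of 117 tested members with the match were lower, or 56.4%, and 14 of 36 coding members without it, or 38.9%. Over all genes 9.73% were lower. With G9a hairpins 45 of 117 with the match were higher, or 38.5%, and 7 of 36 without it, or 19.4%, where all genes gave 25%. Lower with G9a hairpins were 11 of 117 with the match, or 9.40%, and 7 of 36 without it, or 19.4%, where all genes gave 24.9%. In the test of the difference between these responses, 77 of 117 were below and 1 above with the match, and 9 of 36 were below and 3 above without it. All genes gave 22.3% below and 22.5% above. By finger number, 31 of 57 KRAB members with fewer than 12 fingers and 35 of 60 with 12 or more were lower at 4 µM. These counts are a description and were not tested against each other.

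The SUV39H1 hairpins gave changes in both directions that differed between the hairpins. With both hairpins against the scrambled one, 45 members were higher and 55 lower, where 35.1% of all genes were higher and 32.7% lower, and the median was 0.00. Hairpin 2 gave 33 higher and 67 lower, where all genes gave 34.5% and 32.6%, with a median of -0.13. Hairpin 4 gave 59 higher and 27 lower, where all genes gave 31.8% and 29.2%, with a median of 0.09. Hairpin 4 against hairpin 2 gave 76 higher and 3 lower members, where all genes gave 22% and 20.9%, and the median difference was 0.22. The 3 became 1 without SUV39H1 hairpin 2 replicate 2 and 1 without hairpin 4 replicate 2 or replicate 3. SUV39H1 itself was at 32.0% of scrambled with hairpin 2 and 36.3% with hairpin 4. EHMT2 was also at different levels, 75.4% of scrambled with hairpin 2 and 89.3% with hairpin 4, and the part of these levels in the difference between the hairpins was not tested.

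ZNF584 (chr19:58912871-58929694, plus strand, hg19), a protein of 8 fingers with the KRAB letters, fell with both hairpins. It had 10.7, 10.8 and 10.6 CPM with hairpin 2 and 13.1, 12.0 and 13.9 CPM with hairpin 4, against 25.7, 25.0 and 26.2 CPM with the scrambled hairpin. The scrambled libraries stood above the other 21 libraries, and the mean change was -1.12 ± 0.05 (SE) (edgeR adjusted p = 4.4e-17). In DMSO it was 19.2, 20.3 and 21.7 CPM, and the scrambled level was higher than DMSO by 0.33 ± 0.05 (SE). ZNF614 showed how the hairpins differ. It had 16.4, 14.6 and 14.2 CPM with hairpin 2 and 27.7, 26.1 and 27.1 CPM with hairpin 4, against 36.0, 37.2 and 33.8 CPM with the scrambled hairpin. The 3 groups did not overlap, and hairpin 4 stood 0.84 ± 0.07 (SE) above hairpin 2.

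ZNF134 and ZNF845, which fell with the inhibitor, also fell with SUV39H1 hairpins. ZNF134 had 8.31, 7.90 and 7.82 CPM with hairpin 2 and 13.2, 13.1 and 12.4 CPM with hairpin 4, against 15.4, 15.9 and 15.8 CPM with the scrambled hairpin, a mean change of -0.63 ± 0.05 (SE). In DMSO ZNF134 stood at 14.6, 13.9 and 14.1 CPM, at 2 µM at 9.44, 8.12 and 9.07 CPM and at 4 µM at 8.37, 8.17 and 8.41 CPM. The hairpin 2 libraries stood at about the level of the UNC0638 libraries, and the hairpin 4 libraries between these and the controls. ZNF845 had 2.29, 2.44 and 2.67 CPM with hairpin 2 and 3.90, 4.42 and 4.25 CPM with hairpin 4, against 6.03, 5.58 and 5.20 CPM with the scrambled hairpin, a mean change of -0.80 ± 0.10 (SE). ZNF90, ZNF790, ZNF296 and ZNF576 were the other strongest falls with both hairpins, at -0.74, -0.61, -0.57 and -0.55. Hairpin 4 was above hairpin 2 most strongly in ZNF614, ZNF845 and ZNF583, the last by 0.75 ± 0.09 (SE), and below it in ZNF580, ZNF575 and ZNF558, at -0.44, -0.17 and -0.14. With no filter on low counts the calls of ZNF575 and ZNF558 were lost (edgeR adjusted p = 0.192 and 0.232), and with DESeq2 that of ZNF575 (adjusted p = 0.0592). The ZNF575 call was also lost when any 1 of the 6 SUV39H1 hairpin libraries was left out (edgeR adjusted p = 0.0553 to 0.164). The ZNF558 call was also lost without replicate 2 or 3 of either hairpin (edgeR adjusted p = 0.0865 to 0.150).

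Rises with SUV39H1 hairpins were led by ZNF846 and ZNF254. ZNF846 had 2.41, 2.50 and 2.48 CPM with hairpin 2 and 2.38, 2.73 and 2.23 CPM with hairpin 4, against 1.09, 1.02 and 1.03 CPM with the scrambled hairpin, a change of 1.23 ± 0.15 (SE) (edgeR adjusted p = 3.5e-08). All 6 hairpin libraries lay above the scrambled libraries and above the highest DMSO library. ZNF254 had 22.0, 20.2 and 19.7 CPM with hairpin 2 and 21.0, 19.7 and 20.7 CPM with hairpin 4, against 11.6, 13.1 and 10.2 CPM with the scrambled hairpin, a change of 0.81 ± 0.07 (SE). The next largest rises were ZNF333, ZNF224, ZNF554, ZNF83, ZNF714 and ZNF763, at 0.59, 0.56, 0.56, 0.55, 0.48 and 0.47. For ZNF714 the opposite call at 4 µM UNC0638, -0.45, was lost without UNC0638 4 µM replicate 3, where it was -0.34 with an edgeR adjusted p of 0.0698.

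**Figure D4:**
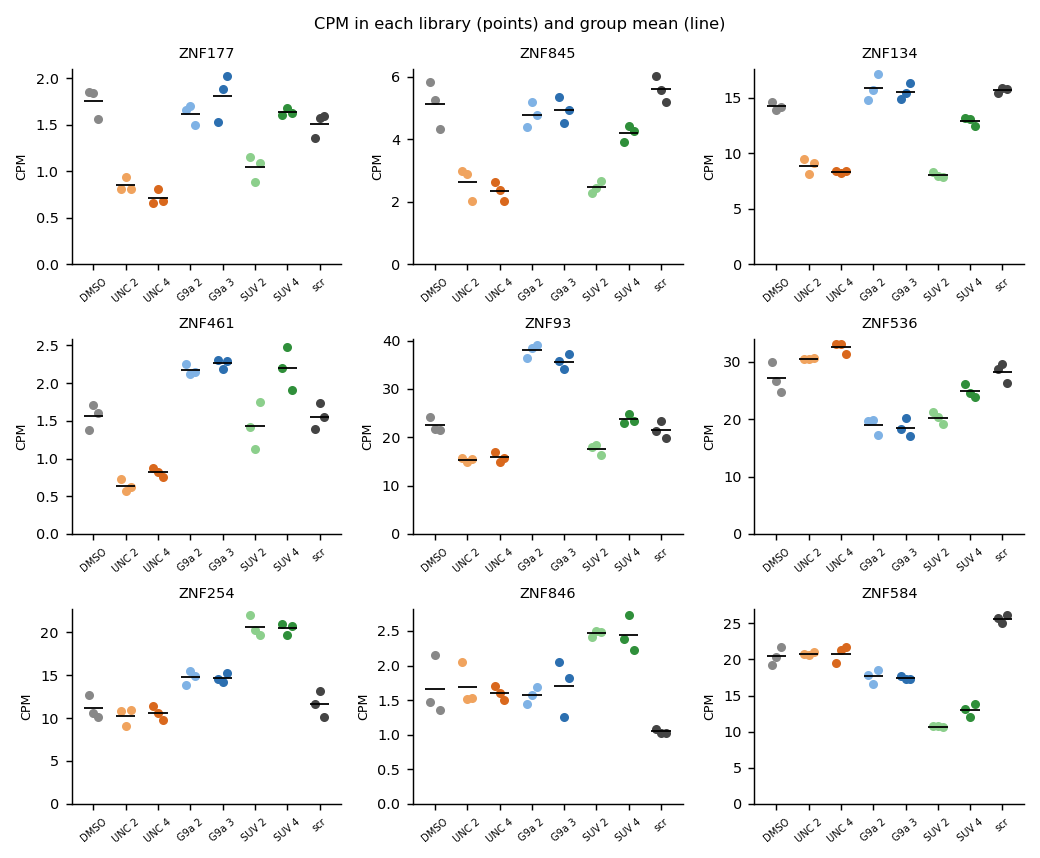
CPM (vertical, from 0) of 9 named members in each library, with groups in the order DMSO, UNC0638 2 µM and 4 µM, G9a hairpins 2 and 3, SUV39H1 hairpins 2 and 4, and scrambled. Points are libraries and lines are group means. ZNF93 stands at 34.0 to 39.0 CPM in G9a hairpin libraries, and ZNF584 at 10.6 to 13.9 CPM in SUV39H1 hairpin libraries.

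The G9a and SUV39H1 hairpins were also compared directly. With G9a hairpins against SUV39H1 hairpins, 77 members were higher and 25 lower, where all genes gave 32.9% and 32.6%, with a median of 0.13. ZNF93 was higher by 0.85 ± 0.04 (SE), ZNF614 by 0.70 ± 0.05 (SE) and ZNF583 by 0.70 ± 0.06 (SE). ZNF846, ZNF714 and ZNF254 were lower, at -0.58, -0.55 and -0.48.

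The controls themselves differed in some members. With the scrambled hairpin against DMSO, 16 members were higher and 14 lower, where all genes gave 14.9% and 16.5%, and the 16 became 8 without DMSO replicate 2, 7 without DMSO replicate 3, 8 without scrambled replicate 1 and 7 without scrambled replicate 2. ZNF160 had 14.6, 15.7 and 14.8 CPM with the scrambled hairpin, against 25.2, 25.3 and 23.4 CPM in DMSO, a change of -0.71 ± 0.05 (SE) (edgeR adjusted p = 1.5e-10). ZNF846 and ZNF137P were lower, at -0.62 and -0.44, and ZNF114, ZNF584 and ZNF576 higher, at 0.36, 0.33 and 0.28. The ZNF846 call was lost without DMSO replicate 2, where the change was -0.44 with an edgeR adjusted p of 0.0771.

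A few members moved the same way under all 3 interventions. ZNF616, ZNF790, ZNF566, ZNF749, ZNF71 and ZNF480 were lower at 4 µM UNC0638, with the G9a hairpins and with the SUV39H1 hairpins, the last 2 of which share the scrambled libraries. Taken singly, 51.9%, 11.25% and 34.4% of tested members were lower in these comparisons, where all genes gave 9.73%, 24.9% and 32.7%. The share of all genes lower in all 3 was not counted, so the 6 members were not read as a joint response. ZNF616 kept all 3 calls under every alternative run, at -0.50 ± 0.08 (SE) for 4 µM, -0.26 ± 0.07 (SE) for G9a and -0.47 ± 0.07 (SE) for SUV39H1 hairpins. For ZNF566 the inhibitor call rested on single libraries, with -0.24 in all libraries and -0.13 without DMSO replicate 1 (edgeR adjusted p = 0.265), and it was also lost without DMSO replicate 3 (0.0897), 4 µM replicate 2 (0.145) or 4 µM replicate 3 (0.131). For ZNF480 it was lost without DMSO replicate 1 (edgeR adjusted p = 0.102), 4 µM replicate 2 (0.0951) or 4 µM replicate 3 (0.106). The G9a call was lost without scrambled replicate 2 for ZNF749 (edgeR adjusted p = 0.152) and ZNF480 (0.167), without scrambled replicate 1 for ZNF790 (0.0693), ZNF71 (0.106) and ZNF480 (0.0744), and without scrambled replicate 3 for ZNF749 (0.0894), ZNF790 (0.0869) and ZNF71 (0.104). It was lost without G9a hairpin 2 replicate 1 for ZNF790 (edgeR adjusted p = 0.0629) and ZNF480 (0.0513), and without G9a hairpin 3 replicate 2 for ZNF790 (0.0612) and ZNF480 (0.0524). With the compared libraries alone the inhibitor call was lost for ZNF566 (edgeR adjusted p = 0.190) and ZNF480 (0.125). The G9a call was lost for ZNF71 with no filter on low counts (edgeR adjusted p = 0.0612) and for ZNF790 with DESeq2 (adjusted p = 0.0552). No member was higher in all 3.

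Members called in opposite directions included ZNF347 and ZNF818P at low levels. ZNF347 had 0.338, 0.275 and 0.361 CPM at 4 µM, against 0.586, 0.825 and 0.677 CPM in DMSO. It had 0.625, 0.808 and 0.771 CPM with G9a hairpin 2 and 0.929, 1.10 and 0.924 CPM with hairpin 3, against 0.483, 0.532 and 0.466 CPM with the scrambled hairpin. The changes were -1.06 ± 0.23 (SE) and 0.77 ± 0.18 (SE), and in neither comparison did the groups overlap. The pseudogene ZNF818P changed by -0.98 ± 0.23 (SE) at 4 µM and by 0.65 ± 0.19 (SE) with G9a hairpins, the second with an edgeR adjusted p of 0.101 without scrambled replicate 2. ZNF382, a KRAB protein known to be silenced in several cancers, changed by -0.69 ± 0.25 (SE) and 0.50 ± 0.19 (SE), but neither call was firm. The inhibitor call was lost without DMSO replicate 1, 2 or 3 or 4 µM replicate 1 or 3 (edgeR adjusted p = 0.0560 to 0.233). The G9a call was lost without hairpin 2 replicate 3, hairpin 3 replicate 1, or scrambled replicate 1 or 2 (edgeR adjusted p = 0.0769 to 0.111). With DESeq2 both calls were lost (adjusted p = 0.0751 at 4 µM and 0.0768 with G9a hairpins), and with the compared libraries alone the inhibitor call was lost (edgeR adjusted p = 0.0692).

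Along the chromosome, members were grouped where neighbouring starts of all 261 names lay within 500 kb, which gave 10 clusters with at least 3 members and 150 members in all. The median log2 fold change at 4 µM UNC0638 was negative in 10 of 10 clusters, from -0.60 to -0.08. With G9a hairpins 8 of 10 cluster medians were positive, from -0.08 to 0.29. The smallest clusters, from 2.8 to 2.9 Mb and from 40.5 to 40.6 Mb, held only 2 and 3 tested members. The first gave the 0.29 with G9a hairpins and the second the -0.08 at 4 µM UNC0638. SUV39H1 hairpin 2 gave a lower median than hairpin 4 in 10 of 10 clusters. Positions in this paragraph and the next are hg19 and in Mb.

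The cluster from 36.7 to 38.3 Mb stood lowest with the inhibitor. At 4 µM 14 of its 17 members were lower, with a median of -0.60, and at 2 µM 12 of 17 were lower. The 10 other tested genes inside the same interval were lower in 7 and not called in the rest, with a median of -0.65. Its summed level was 335 ± 15 CPM at 4 µM, against 364 ± 37 CPM in DMSO (SD, n = 3 each), a sum that ZNF146 dominates. ZNF146 had 248, 246 and 229.6 CPM at 4 µM, against 266, 230.4 and 214 CPM in DMSO, and did not pass the test. ZNF585A in the same cluster had 8.51, 7.82 and 8.27 CPM at 4 µM, against 11.5, 11.9 and 11.8 CPM in DMSO, a change of -0.51 ± 0.05 (SE). Of the larger clusters, members were lower at 4 µM in 17 of 26 from 52.1 to 54.1 Mb, in 8 of 14 from 11.6 to 12.8 Mb, in 8 of 13 from 19.8 to 24.3 Mb, in 8 of 17 from 44.0 to 45.0 Mb, in 14 of 34 from 57.7 to 59.0 Mb, in 7 of 11 from 56.0 to 57.2 Mb and in 4 of 12 from 8.6 to 9.9 Mb.

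The 12 other tested genes inside the cluster from 11.6 to 12.8 Mb held 1 called gene at 4 µM, which was higher, and the 26 inside that from 52.1 to 54.1 Mb were lower in 1 and higher in 4. In the other large clusters the genes that are no members were lower in 10 of 29 from 57.7 to 59.0 Mb, in 4 of 14 from 44.0 to 45.0 Mb, in 3 of 6 from 8.6 to 9.9 Mb, in 2 of 23 from 19.8 to 24.3 Mb and in 2 of 23 from 56.0 to 57.2 Mb. The other tested genes inside clusters, here and above, still hold zinc finger genes under other names, such as ZIK1. They also hold names that overlap members, such as ZNF559-ZNF177, so they are not all separate from the family. The same holds for the other genes of chromosome 19 counted earlier. The cluster from 19.8 to 24.3 Mb, the home of ZNF93 and ZNF254, summed to 212 ± 9.8 CPM with G9a hairpin 2 and 207 ± 5.9 CPM with hairpin 3, against 179 ± 10 CPM with the scrambled hairpin (SD, n = 3 each). A large part of that rise is ZNF93, at 36.4, 38.4 and 39.0 CPM with hairpin 2 and 35.7, 34.0 and 37.1 CPM with hairpin 3. Its scrambled levels were 21.3, 23.4 and 19.8 CPM. With G9a hairpins 5 of 13 members of this cluster were higher and 0 lower, where all genes gave 25% and 24.9%. The cluster median was 0.13, against 0.11 over all members. In the smallest clusters, ZNF780A from 40.5 to 40.6 Mb rose with SUV39H1 hairpins by 0.28 ± 0.05 (SE) and ZNF554 from 2.8 to 2.9 Mb by 0.56 ± 0.10 (SE). A split at the widest gap between members' starts, 24.2 to 30.7 Mb, which holds the centromere and was chosen after the values were seen, gave 18 higher and 11 lower of 43 members before it and 15 higher and 56 lower of 117 after it with SUV39H1 hairpin 2. With hairpin 4 it gave 25 higher and 1 lower before and 34 higher and 26 lower after. All genes gave 34.5% higher and 32.6% lower with hairpin 2 and 31.8% and 29.2% with hairpin 4.

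**Figure D5:**
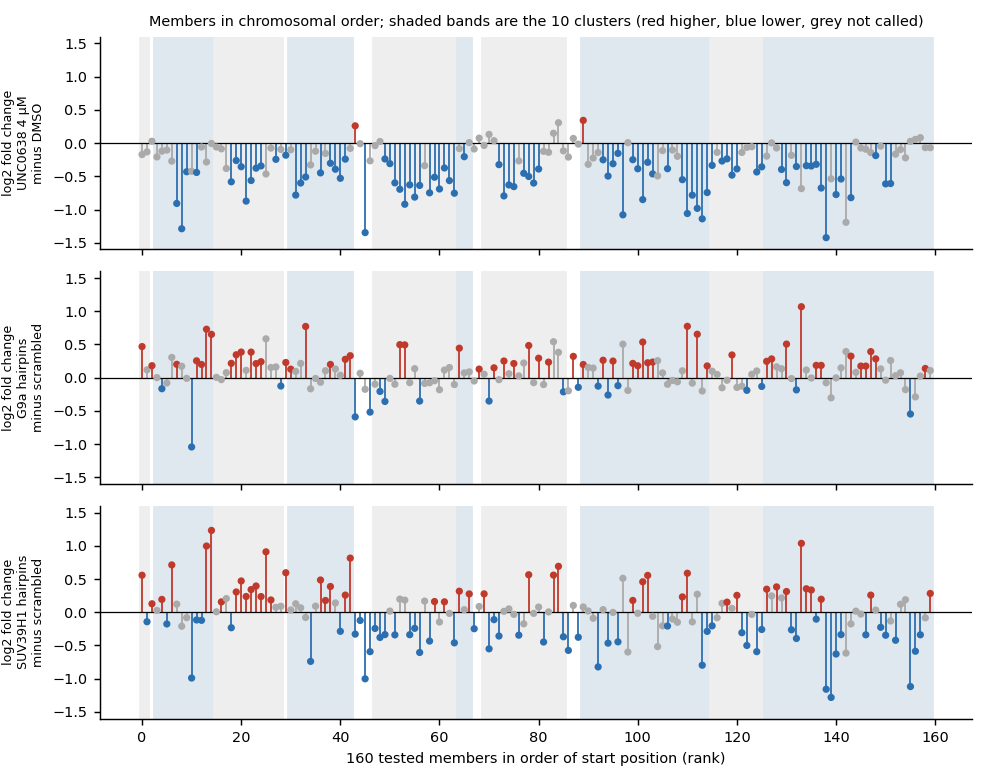
Log2 fold change (vertical) of 160 tested members in order of start position (horizontal, rank), for 4 µM UNC0638 against DMSO, G9a hairpins against scrambled and SUV39H1 hairpins against scrambled. Red and blue points passed the test, grey did not, and shaded bands are the 10 clusters. The inhibitor panel is blue through most bands, with 83 lower members, and the hairpin panels mix both colours.

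Neighbours along the chromosome were also set side by side. Over 159 pairs of neighbouring members, Spearman's rho between their log2 fold changes was 0.53 at 4 µM, 0.09 with G9a hairpins and 0.20 with SUV39H1 hairpins, given as a description, since neighbours share libraries and in places reads. Start position and log2 fold change had a rho of 0.02 at 4 µM, -0.07 with G9a hairpins and -0.21 with SUV39H1 hairpins over 160 members. Level had a rho of 0.36 with the change at 4 µM on the scale of CPM per kb, low members having the more negative estimates. Members under 1 CPM were lower in 9 of 25 with a median of -0.49, and members at 5 CPM or more in 56 of 99 with a median of -0.24.

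Genes for the proteins through which KRAB zinc fingers act were counted from a list that includes EHMT2 and SUV39H1. Of 28 such genes tested, 1 was higher and 4 lower at 4 µM, or 3.57% and 14.3%, where all genes gave 10.2% and 9.73%, with a median of -0.03. The heterochromatin protein gene CBX3 was higher, at 444 CPM at 4 µM, against 383 CPM in DMSO, and SETDB1 was lower, at 52.5 CPM at 4 µM, against 59.4 CPM in DMSO. TRIM28 was called in neither the inhibitor nor the G9a comparison. With G9a hairpins 11 were higher and 5 lower, or 39.3% and 17.9%, where all genes gave 25% and 24.9%, and the hairpin target EHMT2 was among the falls. With SUV39H1 hairpins 9 were higher and 16 lower, or 32.1% and 57.1%, where all genes gave 35.1% and 32.7%, and the hairpin target SUV39H1 was among the falls. TRIM28 was lower, at 465 CPM with the hairpins, against 664 CPM with the scrambled hairpin. SUV39H2, the paralogue of SUV39H1, fell to 17.0 CPM with the SUV39H1 hairpins, against 31.4 CPM with the scrambled hairpin. Of the 15 zinc finger genes of chromosome 19 listed under other names 5 were tested, and ZIK1 and ZFP14 were lower at 4 µM, at log2 fold changes of -0.76 and -0.34.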

How the data were processed

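RNA was extracted with RNeasy and made into TruSeq RNA v2 libraries, per the labels' protocols, a kit that does not mark strand. Reads were aligned with STAR to hg19 and counted per gene with featureCounts, per the submitters' processing notes; no source used here gives versions or the handling of multiply mapped reads. The gene table, as deposited, holds raw counts per gene with hg19 coordinates and summed gene length, and the authors' transposon table was not used. From these counts all genes with enough reads (filterByExpr, minimum count 10, minimum total 15; 20147 genes) were fitted together with edgeR 4.0.16 in R 4.3.3, with TMM scaling, 1 mean for each of 8 groups and the quasi-likelihood test, and p-values were adjusted by Benjamini-Hochberg over all genes tested. A gene is called higher or lower at an adjusted p under 0.05. The standard error is the log2 fold change divided by the square root of F. The common biological coefficient of variation was 4.63%. Counts in a library carry counting error, which limits members with few counts most, the lowest having 125 counts over 24 libraries. No 2 libraries of a group agreed within sampling noise. The chi-square per degree of freedom between 2 libraries of a group ran from 1.99 to 22.1. The highest was for DMSO replicates 1 and 3, followed by 12.5 for 4 µM UNC0638 replicates 1 and 3. DMSO replicates 1 and 2 gave 10.2, and DMSO replicates 2 and 3 gave 2.91. The level of 1 marker of another cell type is not reported here.

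The members and lists were chosen with earlier results of these data known, and the sets by KRAB match, level, overlap and side of the widest gap are descriptions. Genes named in the text were the 8 with the largest change in each direction at 4 µM, at 2 µM and for the mean of both G9a and both SUV39H1 hairpins (mean of at least 1 CPM, no overlap with controls, both hairpins called), the 3 largest in each direction of other contrasts, members called alike or oppositely across interventions, the extremes of level and 1 per cluster. Promoter sequences are RefSeq's, GRCh38.p14, and coding sequences are from GENCODE 29; neither was mixed with the hg19 coordinates. KRAB and finger letters were read from GENCODE because no RefSeq protein table was used here. Alternatives were RLE scaling, no filter on low counts, a replicate block, the compared libraries alone, DESeq2 1.42.0 and leaving out each library in turn.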

Additional observations from a re-analysis of the deposited data

Results flagged for a closer look

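The response to 4 µM UNC0638 and the response to G9a hairpins differed by the test of the difference itself in the same edgeR fit. It was above in 4 members and below in 89 of 160. Among the members named by rule for this contrast, ZNF536 differed by 0.85, ZNF584 by 0.57 and ZNF576 by 0.48 on the log2 scale, all with the inhibitor response above the hairpin response. ZNF177 differed by -1.46, ZNF461 by -1.41 and ZNF137P by -1.39, with the inhibitor response below. ZNF584, ZNF576 and ZNF137P also differed between the scrambled and DMSO controls, by 0.33, 0.28 and -0.44, and the part of that in these differences was not tested.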

How the results depend on the processing

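Under every alternative run the median log2 fold change of members kept its sign for the inhibitor and the G9a hairpins, from -0.31 to -0.27 at 4 µM, from -0.25 to -0.24 at 2 µM and from 0.08 to 0.14 for G9a, while that for the SUV39H1 hairpins lay on either side of 0, from -0.02 to 0.01. The count of members lower at 4 µM was 64 with the compared libraries alone and 76 with DESeq2. With 2 µM against DMSO the count of higher members was 1 with no low-count filter, 1 with the replicate block and 0 to 3 when each library was left out. With SUV39H1 hairpin 4 against hairpin 2 the count of lower members was 1 with no low-count filter and 1 to 4 when each library was left out. With the scrambled hairpin against DMSO the count of higher members was 7 with the compared libraries alone and 7 to 20 when each was left out. Leaving out each library gave 1 to 2 higher members at 4 µM and 9 to 16 lower members with G9a hairpin 3. Over all genes, the compared libraries alone gave 1993 calls at 4 µM in place of 4012, 717 at 2 µM in place of 1444 and 236 for 4 µM against 2 µM in place of 371, and the cause was not tested. Leaving out DMSO replicate 1 gave 2197 at 2 µM. For G9a hairpin 3 against hairpin 2 the count over all genes was 11 with no low-count filter in place of 2. Of 104 named results 90 kept direction and side of the threshold under all alternatives, 14 lost it in some, and none changed sign. The replicate block left 83 lower members at 4 µM and 55 higher with G9a hairpins. The count of members higher with G9a hairpins was 41 with DESeq2 and 38 without scrambled replicate 3, in place of 54. Same-numbered libraries of compared groups deviated together with a correlation of -0.07 to 0.23, and in 0 of 8 group pairs did all 3 exceed 0.1, so the numbers were not taken as pairs. The correlation was still higher for the same number than the mean for other numbers in 19 of 24 pairs of libraries. Over all genes the replicate block gave 4642 calls at 4 µM in place of 4012, and 1703 at 2 µM in place of 1444. Depth limits members under 1 CPM, where 9 of 25 were lower at 4 µM.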
